A study of Mus musculus with 32 samples.

Results

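The inhibitors of cyclin-dependent kinases (CDKs) other than p21 comprised 7 genes in bone marrow-derived macrophages (BMDMs): Cdkn1b, Cdkn1c, Cdkn2a, Cdkn2b, Cdkn2c, Cdkn2d and Cdkn3. They were taken by gene symbol, by matching the Ensembl identifier of each row of the count table to the GENCODE annotation. Their levels did not enter this match, but the genes were chosen with earlier results of these data known. Each symbol matched 1 of the 54281 rows, and all 7 were among the 15257 genes kept by the filter on low counts. After 4 days, the Cdkn3 transcript was lower in cells that had lost both Trex1 alleles than in controls (log2 fold change −2.11, edgeR quasi-likelihood test, adjusted p = 8.9e-05). Cdkn1b was lower on days 2 and 3, by less (−0.27 and −0.37). Its day 2 call was lost with the 4 libraries compared alone (edgeR adjusted p = 0.0127), and both calls were lost when certain single libraries were left out. With the untreated genotype difference taken off, neither day passed in the fit to all libraries (0.167 and 0.0164). None of the other 5 genes passed the test between genotypes on any day after 4-OHT in the fit to all libraries. In alternative fits, Cdkn2c passed on day 4 (−0.43) with the 16 treated libraries alone (edgeR adjusted p = 9.61e-05). It also passed without 1 untreated library of day 1, a fit that was not planned. Cdkn2d, higher on day 3 in the cells that had lost both alleles (0.36, adjusted p = 0.0119), missed the threshold. It passed with RLE size factors (0.0083), with the 16 treated libraries (0.00658) and in DESeq2 (0.00553). With the untreated genotype difference of that day (0.28) taken off, 0.08 remained for Cdkn2d (edgeR adjusted p = 0.831). Cdkn1c on day 3 passed only with no filter on low counts (0.000314). From day 2 to day 3 in culture, 5 of the 7 genes changed in untreated WT/FL cells, as did 34.9% of all genes, and the call of 1 of the 5, Cdkn2a, was lost without 1 library (adjusted p = 0.0167).

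CDK inhibitors bind cyclin-dependent kinases or their cyclin complexes and hold cells back from dividing. The CIP/KIP proteins p27 (Cdkn1b) and p57 (Cdkn1c), relatives of p21 (Cdkn1a), act mainly on complexes of CDK2 with cyclins E and A. The INK4 proteins p16 (Cdkn2a), p15 (Cdkn2b), p18 (Cdkn2c) and p19 (Cdkn2d) bind CDK4 and CDK6 and compete with D-type cyclins. Cdkn2a also encodes ARF from an alternative first exon, which stabilises p53 by binding MDM2. Cdkn3 belongs to neither family: it encodes KAP, a phosphatase that removes the activating phosphate of CDK2, and its transcript is known to be abundant in dividing cells. Macrophages in culture leave the cell cycle as they mature, and p27 is known to be regulated largely through degradation of the protein, which RNA levels do not show.

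BMDMs were grown from bone marrow of Trex1 FL/FL or Trex1 WT/FL mice for 6 days in medium with 30% L929 supernatant, a source of macrophage growth factor. Mice of both genotypes carried a CreERT2 knock-in at the R26 locus, which is active in most cell types, and FL is an allele that Cre can delete. Cells were left untreated or given 2 µg/ml (Z)-4-hydroxytamoxifen (4-OHT), which activates CreERT2, for 22 h, and were harvested 1, 2, 3 or 4 days later. Treated FL/FL cells thus lose both copies of Trex1, a nuclease that degrades DNA in the cytosol, and treated WT/FL cells lose 1 copy. The 16 groups of genotype, treatment and day had 2 libraries each, 32 in all. No group lacked CreERT2, and nothing in the labels says whether the libraries of a group came from separate mice or cultures, so p-values measure the spread between these libraries, which may be technical.

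Library totals ran from 35120505 to 63760884 estimated counts (median 44841991). Trex1 was at 0 in 6 of the 8 treated FL/FL libraries and at 0.25 and 0.347 CPM (counts per 1000000 counts of the library) in the libraries of day 2, against 12.2 to 79.4 CPM in treated WT/FL cells. All 8 macrophage markers were kept by the filter, with summed levels of 15300 to 48700 CPM. Summed markers reached at most 18.8 CPM for neutrophils and their precursors, 2.27 CPM for fibroblasts, 2.47 CPM for dendritic cells, 0.771 CPM for mast cells and 0.073 CPM for lymphocytes. The genes Ncr1, Mcpt8 and Fcer1a were at 0 in all libraries. The untreated FL/FL libraries of day 1 stood apart from each other. Their counts differed with a chi-square per degree of freedom of 47, against 8.55 to 19.5 in the other 15 groups, and replicate 2 of this group was low for 3 of the members, as given below.

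The promoters of 4 members are shown because these genes moved with days in culture or differed between genotypes, and because their letters differ at motifs known from cell cycle genes. Each sequence is the 250 bases before the annotated start of the canonical transcript in GRCm39, on the gene's strand. Capitals mark the CHR (TTTGAA, a motif found near the start of genes expressed in G2 and mitosis), the CCAAT box (CCAAT) and the E2F site (TTTCCCGC, among the 4 forms TTTGGCGC, TTTCGCGC, TTTCCCGC and TTTGCCGC), on either strand. The regions are chr14:46997654-46997903 (Cdkn3, plus strand), chr9:21202728-21202977 (Cdkn2d, minus strand), chr4:109524044-109524293 (Cdkn2c, minus strand) and chr6:134897114-134897363 (Cdkn1b, plus strand).
Cdkn3: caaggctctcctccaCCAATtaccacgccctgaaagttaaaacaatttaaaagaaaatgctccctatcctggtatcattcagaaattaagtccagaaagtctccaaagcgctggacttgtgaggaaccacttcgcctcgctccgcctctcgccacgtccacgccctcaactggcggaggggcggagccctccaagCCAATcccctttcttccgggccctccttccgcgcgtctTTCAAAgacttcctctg
Cdkn2d: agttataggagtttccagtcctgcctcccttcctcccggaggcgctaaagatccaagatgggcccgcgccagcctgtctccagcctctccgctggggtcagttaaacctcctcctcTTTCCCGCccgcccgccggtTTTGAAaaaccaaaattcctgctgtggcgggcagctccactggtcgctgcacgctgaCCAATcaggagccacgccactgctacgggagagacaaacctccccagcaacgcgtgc
Cdkn2c: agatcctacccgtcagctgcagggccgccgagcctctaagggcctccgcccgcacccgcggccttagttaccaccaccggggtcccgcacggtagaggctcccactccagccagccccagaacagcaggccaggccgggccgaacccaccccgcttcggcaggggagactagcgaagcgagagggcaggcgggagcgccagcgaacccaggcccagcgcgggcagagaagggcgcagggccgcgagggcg
Cdkn1b: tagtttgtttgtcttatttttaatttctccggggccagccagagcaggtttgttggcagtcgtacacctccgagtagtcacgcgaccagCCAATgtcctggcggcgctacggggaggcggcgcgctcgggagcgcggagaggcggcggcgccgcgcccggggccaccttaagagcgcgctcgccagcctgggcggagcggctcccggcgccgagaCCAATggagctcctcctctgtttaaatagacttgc

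The Cdkn3 promoter held a CHR that begins 17 bases before the start and CCAAT boxes that begin 55 and 235 bases before it. In Cdkn2d a CHR began 114, a CCAAT box 57 and an E2F site 134 bases before the start. Cdkn1b had CCAAT boxes 161 and 35 bases before its start and none of the other motifs, and Cdkn2c had no match in its window. That window lies inside the annotated gene, which reaches chr4:109524386, so another annotated start lies upstream and was not searched. The level of Cdkn2c followed those of Cdkn3 and Cdkn2d, as described below. Of the members not shown, the promoter of Cdkn2b held a CHR at 154 bases, that of the ARF transcript of Cdkn2a an E2F site at 65 bases, and that of Cdkn1c 3 CCAAT boxes and a match to the core of interferon-response elements (TTTC, any 2 bases, TTTC) at 26 bases. No motif was found before the p16 transcript of Cdkn2a. The FOXO motif GTAAACA was in none of these promoters. Among 21757 promoters of the same length, 15.6% held the CHR, 36.5% the CCAAT box, 6.05% both, 2.28% an E2F site, 3.32% the interferon-response core and 2.72% the FOXO motif. These matches describe letters in the window and were not tested for function.

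The genes lie on 5 chromosomes, with Cdkn2a and Cdkn2b side by side on chromosome 4. In GRCm39, Cdkn1b is at chr6:134897364-134902476, Cdkn1c at chr7:143012069-143014806, Cdkn2a at chr4:89192708-89212890, Cdkn2b at chr4:89223204-89229276, Cdkn2c at chr4:109517957-109524386, Cdkn2d at chr9:21199700-21202727 and Cdkn3 at chr14:46997904-47015505. Counts were summed per gene, so the p16 and ARF transcripts of Cdkn2a could not be separated. Cdkn3 overlaps Cnih1 on the other strand, which had 1757 to 6249 counts, and 7.83% of its 31-base words occur in antisense orientation in other transcripts. This share was 24.5% for Cdkn1c, 7.4% for Cdkn2c and at most 4.63% for the rest. Words shared with transcripts of other genes in the same orientation made up 2.71% for Cdkn3 and at most 0.558% for the other members. The strand setting of the quantification is not stated, so reads of a gene and of an antisense partner could not be told apart.

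The level of each gene in all libraries is given in CPM scaled by the trimmed mean of M values (TMM). Cdkn1b was found at 36.3 to 124 CPM (1598 to 6246 counts), Cdkn2c at 14 to 104 CPM (464 to 6070 counts), Cdkn2d at 7.39 to 38.6 CPM (244 to 2283 counts) and Cdkn3 at 0.212 to 22.2 CPM (7 to 1240 counts). Levels were low for Cdkn1c, at 2.29 to 9.59 CPM (107 to 504 counts), for Cdkn2a, at 0.619 to 5.07 CPM (29 to 243 counts), and for Cdkn2b, at 0.525 to 2.99 CPM (27 to 157 counts). The higher library of a group exceeded the lower one by a median of 1.04-fold for Cdkn2c and 1.06-fold for Cdkn1b and Cdkn2d, but by 1.24-fold for Cdkn2b, 1.27-fold for Cdkn1c and 1.38-fold for Cdkn2a. The last 3 genes therefore carry wide errors in every comparison. Part of this spread had an order: the library with the lower number in its title was the higher of its group for Cdkn1c in 14 of 16 groups and the lower for Cdkn2a in 14 of 16. For the other 5 genes it was the higher in 5 to 11 groups. The labels do not say what these numbers mark, so they did not enter the fit, and whether they mark a batch or a mouse was not tested.

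**Figure D1:**
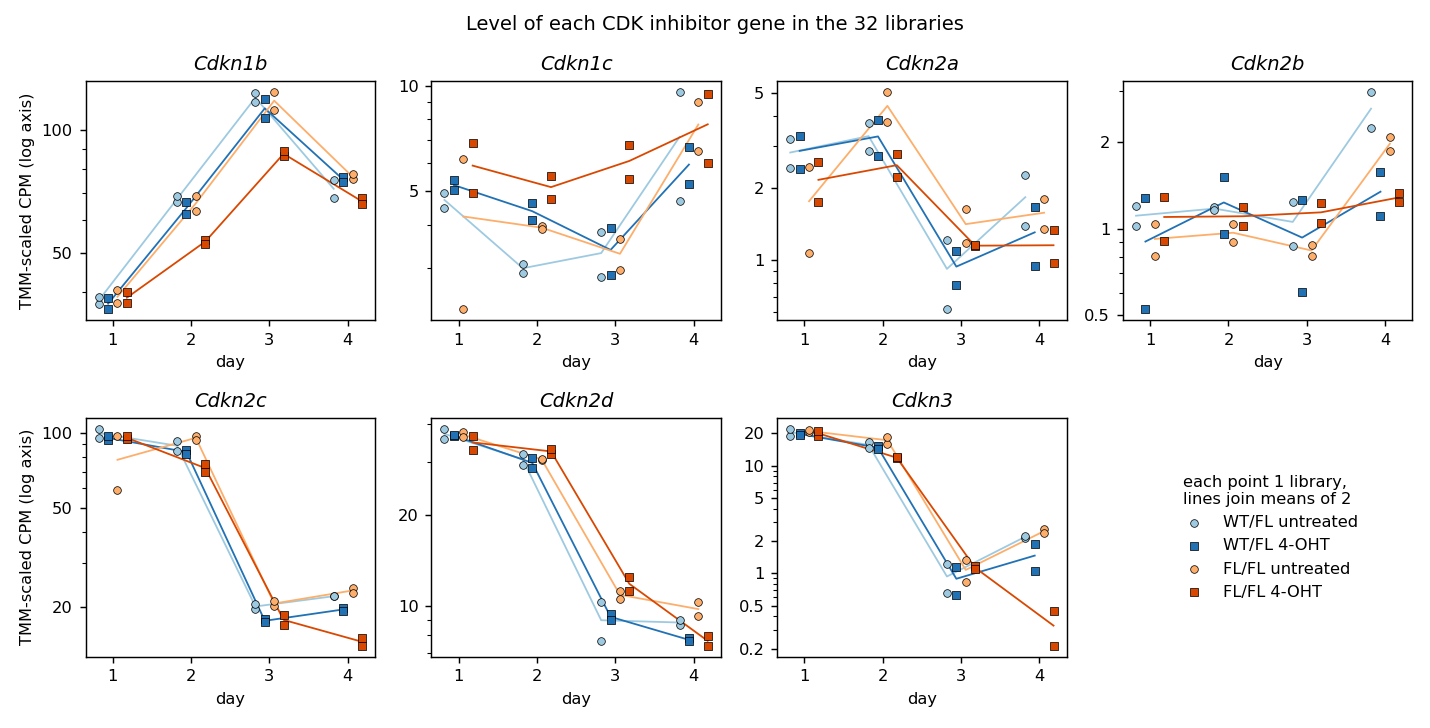
TMM-scaled CPM (log axis) of each of the 7 genes against day, with 1 point per library and lines through the means of 2 libraries, for WT/FL and FL/FL cells, untreated or after 4-OHT. Cdkn1b peaked on day 3, Cdkn2c, Cdkn2d and Cdkn3 dropped between days 2 and 3, and the treated FL/FL libraries of day 4 were the lowest for Cdkn3, at 0.443 and 0.212 CPM.

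Compared per kilobase of the canonical transcript, the median level over the 32 libraries was highest for Cdkn2c (15.3 CPM per kb), Cdkn1b (14.9) and Cdkn2d (13.2). It was 7.11 CPM per kb for Cdkn3, 2.5 for Cdkn1c, 2.08 for Cdkn2a and 0.431 for Cdkn2b. With the length of all annotated exons in place of the canonical transcript, Cdkn2c was at 6.5 and Cdkn3 at 0.914 CPM per kb, so their place in the order depends on which transcript is used. The makeup of the group turned over with time. On day 1 Cdkn1b made up 8.73% to 9.89% of the summed CPM per kb of the 7 genes, and Cdkn2c 33.4% to 38.6%. On day 3 Cdkn1b held 57.2% to 60.4% in the control groups and 48.7% in treated FL/FL cells, and Cdkn2c 15.8% to 17.1%.

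Days in culture were compared first, in untreated WT/FL cells, to see how the 7 genes move without loss of Trex1. A gene was called where edgeR gave an adjusted p under 0.01, with p-values adjusted over all 15257 genes by the method of Benjamini and Hochberg. From day 1 to day 2, Cdkn1b rose by 0.83 on the log2 scale (edgeR adjusted p = 5.52e-11), and it was the only member called of 7, with 38.4% of all genes called. From day 2 to day 3, 5 of 7 members were called against 34.9% of all genes, 1 higher and 4 lower. From day 3 to day 4, 2 of 7 were called against 12.3%. In treated FL/FL cells the same steps called 2 of 7 members (41.1% of all genes), 4 of 7 (33.1%) and 3 of 7 (9.33%). The 2 arms share no library.

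Cdkn1b, the gene of p27, rose and then fell again. In untreated WT/FL cells it was at 37.4 and 38.9 CPM on day 1, 66.6 and 68.8 on day 2, 117 and 123 on day 3 and 68.1 and 75.3 on day 4. The libraries of each day lay apart from those of the neighbouring day, with days 2 and 4 close to each other. The rise from day 2 to day 3 was 0.83 (adjusted p = 3.92e-11) and the drop from day 3 to day 4 was −0.75 (5.41e-09). Treated FL/FL cells went through the same course with a lower peak, from 39.9 and 37.6 CPM on day 1 to 53.8 and 52.6, 86.2 and 88.6, and 67.9 and 65.7 CPM. Their steps were 0.46 (adjusted p = 1.94e-06), 0.72 (9.86e-10) and −0.39 (0.000127). The summed macrophage markers also peaked on day 3, at 45400 to 47000 CPM in untreated WT/FL and 38900 to 39300 CPM in treated FL/FL cells. Whether the state of the cells accounts for the course of Cdkn1b was not tested.

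Cdkn2c, the gene of p18, dropped between days 2 and 3. Untreated WT/FL libraries held 95.5 and 104 CPM on day 1, 92.9 and 84.7 on day 2, 19.7 and 20.6 on day 3 and 22.1 and 22.2 on day 4. Days 1 and 2 thus lay above days 3 and 4 without overlap. The drop from day 2 to day 3 was −2.14 (adjusted p = 6.04e-11), or −2.03 (1.96e-10) in treated FL/FL cells, where the libraries went from 75.1 and 69.4 CPM to 18.6 and 17 CPM. The other steps of Cdkn2c did not pass the test in either arm in the fit to all libraries. For the step from day 1 to day 2 in treated FL/FL cells (−0.4, edgeR adjusted p = 0.0132) this depended on the processing. That step passed in DESeq2 (0.00204), with RLE (0.0084) or upper-quartile size factors (0.00377) and with a minimum count of 50 (0.00679). It also passed with no filter on low counts (1.65e-06) and with the 16 treated libraries alone (9.61e-06). Without replicate 2 of untreated FL/FL cells on day 1, which no step here uses but which adds to the spread estimated for this gene, the steps of treated FL/FL cells from day 1 to day 2 (−0.4) and from day 3 to day 4 (−0.28) passed too, at adjusted p = 1.73e-06 and 0.00511.

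Cdkn2d, the gene of p19, followed the same course at a lower level. Its untreated WT/FL libraries were at 35.6 and 38.6 CPM on day 1, 31.8 and 29.3 on day 2, 7.67 and 10.3 on day 3 and 8.69 and 8.97 on day 4. It fell by 1.77 on the log2 scale from day 2 to day 3 (adjusted p = 3.75e-14). In treated FL/FL cells the fall was −1.45 (2.03e-12), from 31.9 and 33 CPM to 11.2 and 12.5 CPM, and a further fall of −0.63 (0.000118) followed to 7.97 and 7.39 CPM on day 4.

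Cdkn3, the gene of the phosphatase KAP, had the widest range. In untreated WT/FL cells it was at 19 and 22.2 CPM on day 1, 16.6 and 14.7 on day 2, 1.22 and 0.654 on day 3 and 2.15 and 2.24 on day 4. The fall from day 2 to day 3 was −4.04 (adjusted p = 2.29e-12). From day 3 to day 4 it rose by 1.21 (0.00275), a call that was lost without replicate 2 of day 3 (0.0759) or without either library of day 4 (0.0243 and 0.0181). In treated FL/FL cells it fell at each step, by −0.75 (0.00263), −3.4 (4.57e-11) and −1.75 (0.00247), from 18.9 and 21.2 CPM on day 1 to 11.8 and 12, then 1.17 and 1.09, and then 0.443 and 0.212 CPM. The first step lost its call without replicate 2 of day 1 (0.0315) or without either library of day 2 (0.0226 and 0.0201). The last step lost it without either library of day 3 (0.0144 and 0.0193) or without replicate 2 of day 4 (0.0575).

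Cdkn2a fell from 2.85 and 3.76 CPM on day 2 to 0.619 and 1.21 CPM on day 3 in untreated WT/FL cells (−1.86, adjusted p = 0.000305), and this call was lost without replicate 1 of day 3 (−1.44, 0.0167). In treated FL/FL cells the values were 2.77 and 2.22, then 1.14 and 1.15 CPM (−1.13, 0.0196), which passed with the 16 treated libraries alone (0.0087), with no filter on low counts (0.00156) or without replicate 2 of untreated FL/FL cells on day 1 (0.00875). Cdkn1c and Cdkn2b passed no step of these arms in the fit to all libraries. From day 3 to day 4 in untreated WT/FL cells Cdkn1c went from 3.8 and 2.83 to 9.59 and 4.66 CPM (1.11, adjusted p = 0.0366), and Cdkn2b from 1.24 and 0.872 to 2.99 and 2.24 CPM (1.31, 0.0124). Both passed in DESeq2 (0.00681 and 0.00639) and with no filter (3.38e-07 and 0.00803). Cdkn1c also passed without the same day 1 library (1.11, 0.00513) or without replicate 2 of untreated WT/FL cells on day 4 (1.53, 0.00794). The study's stricter rule adds an absolute log2 fold change above 1.5. From day 2 to day 3 it kept Cdkn2a, Cdkn2c, Cdkn2d and Cdkn3 in untreated WT/FL cells (5.66% of all genes) and Cdkn2c and Cdkn3 in treated FL/FL cells (5.07%).

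The comparison at the centre of the study set treated FL/FL against treated WT/FL cells, to ask what changes once both copies of Trex1 are lost. No member was called on day 1, when 0.0197% of all genes were. On days 2, 3 and 4, 1 of 7 was called each time, lower in FL/FL cells, against 8.17%, 12.1% and 21.5% of all genes. The median difference of the 7 genes was 0.02, −0.21, 0.29 and −0.17 on days 1 to 4, and that of all genes −0.01, −0.01, −0.01 and −0.04. The called gene was Cdkn1b on days 2 and 3 and Cdkn3 on day 4.

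**Figure D2:**
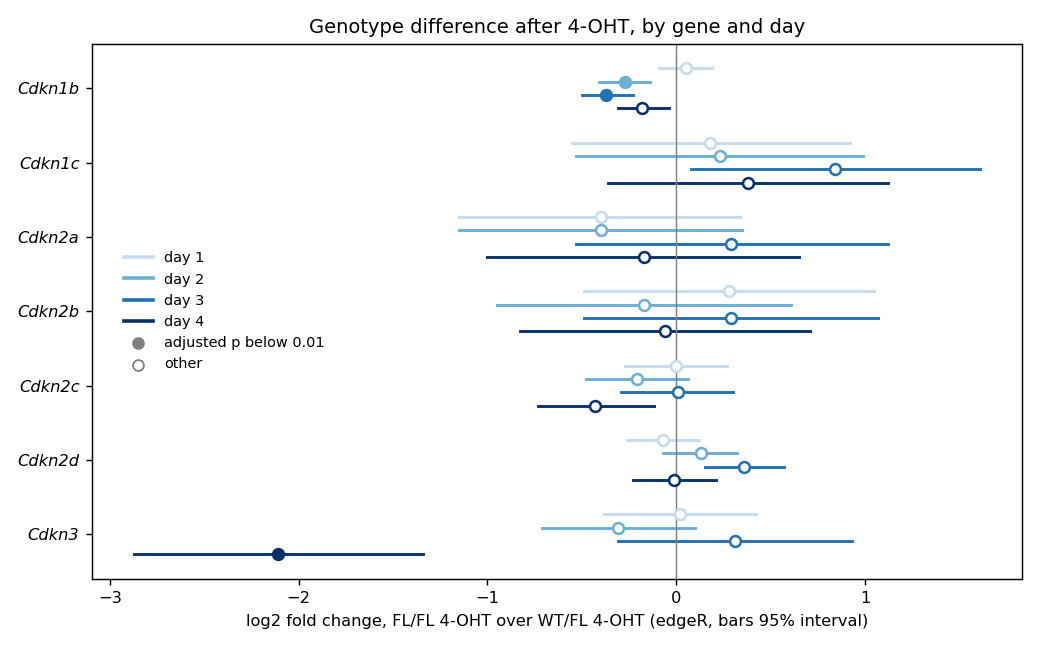
Log2 fold change of each gene between treated FL/FL and treated WT/FL cells (horizontal axis) with its 95% interval, by day, from the edgeR fit to 32 libraries. Filled points passed an adjusted p of 0.01, namely Cdkn1b on days 2 and 3 and Cdkn3 on day 4.

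Cdkn1b was lower in treated FL/FL cells from day 2. On day 1 the FL/FL libraries held 39.9 and 37.6 CPM and the WT/FL libraries 36.3 and 38.6 CPM, which overlap (0.05, adjusted p = 1). On day 2 the values were 53.8 and 52.6 against 66.6 and 62.1 CPM, and on day 3 they were 86.2 and 88.6 against 119 and 107 CPM, with all FL/FL libraries below all WT/FL libraries. The log2 fold change was −0.27 (95% interval −0.41 to −0.14, adjusted p = 0.00489) on day 2 and −0.37 (−0.5 to −0.23, 0.000143) on day 3. On day 4, 67.9 and 65.7 CPM stood against 76.7 and 74.4 CPM, a difference of −0.18 (−0.31 to −0.04) that did not pass (0.0423). The call of day 2 rests on few libraries: it was lost without FL/FL replicate 1 (0.0279) or 2 (0.0541) or without WT/FL replicate 1 (0.0889). That of day 3 was lost without WT/FL replicate 1 (−0.29, adjusted p = 0.0132).

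Against untreated FL/FL cells, which share the treated FL/FL libraries with the comparison above, Cdkn1b was lower by −0.31 (adjusted p = 0.00113) on day 2 and −0.44 (1.09e-05) on day 3. Untreated FL/FL cells had 63.4 and 68.7 CPM on day 2, 112 and 124 CPM on day 3. The day 2 call was lost without replicate 2 of the treated (0.0191) or of the untreated cells (0.0387). The interaction, which takes the untreated genotype difference off the treated one, came to −0.24 (adjusted p = 0.167), −0.35 (0.0164) and −0.28 (0.0428) for days 2, 3 and 4 and did not pass, except on day 3 without replicate 2 of treated WT/FL cells (−0.42, 0.00694). Summed macrophage markers were also lower in treated FL/FL than in treated WT/FL cells on day 2, at 26600 to 28600 against 32000 to 34100 CPM, and on day 3, at 38900 to 39300 against 45700 to 48100 CPM. In bulk RNA, fewer cells of a type and less RNA per cell cannot be told apart, and the part of this shift in the Cdkn1b difference was not tested.

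The relative Cdkn1a, the gene of p21, moved the other way in the same libraries. On day 3 it was at 523 and 503 CPM in treated FL/FL and 344 and 340 CPM in treated WT/FL cells (0.58, adjusted p = 2.41e-08). The ratio of Cdkn1a to Cdkn1b CPM within a library is free of scaling between libraries. On day 1 it was 6.56 and 7.84 in treated FL/FL and 8.03 and 7.45 in treated WT/FL cells, which overlap. On day 2 it was 9.13 and 9.85 against 5.57 and 6.16, on day 3 6.07 and 5.68 against 2.9 and 3.18, and on day 4 7.2 and 7.12 against 3.06 and 3.05. The untreated libraries of both genotypes stayed with the WT/FL values on days 2 to 4. The ratio was thus lower on day 3 than on day 2 in all 4 arms and higher in treated FL/FL than in treated WT/FL cells on each of the last 3 days, as a description of these libraries.

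**Figure D3:**
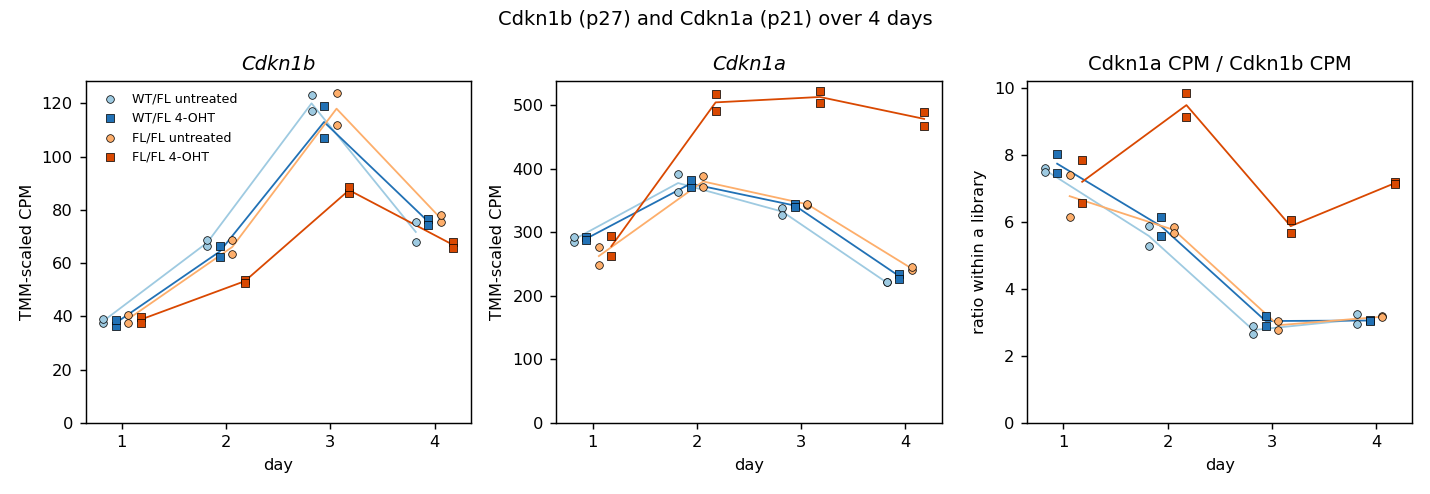
TMM-scaled CPM of Cdkn1b and Cdkn1a and the ratio of the 2 within a library, against day, for the 4 arms (1 point per library, lines through means of 2, axes from 0). On days 2 to 4 the treated FL/FL libraries lay below the treated WT/FL libraries for Cdkn1b and above them for Cdkn1a, with ratios of 5.68 to 9.85 against 2.9 to 6.16.

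Cdkn3 differed on day 4. The treated FL/FL libraries were at 0.443 and 0.212 CPM and the treated WT/FL libraries at 1.05 and 1.88 CPM. The FL/FL values were the lowest of all 32 libraries for this gene, and the lower of them rests on 7 counts. The log2 fold change was −2.11 (95% interval −2.87 to −1.34, 4.3-fold, adjusted p = 8.9e-05), past the study's stricter rule too, which kept 2.98% of all genes. This call held in all 12 alternatives to the fit, at −2.75 to −1.65 with a library left out. On day 1 the groups overlapped, at 18.9 and 21.2 against 20.1 and 19.5 CPM, with a difference of 0.02 (−0.38 to 0.42). On day 2 the FL/FL libraries held 11.8 and 12 CPM and the WT/FL libraries 15.3 and 14.2 CPM, without overlap, but the difference of −0.31 (−0.71 to 0.1) did not pass (0.399). On day 3 the values of 1.17 and 1.09 and of 1.16 and 0.625 CPM overlapped, with a difference of 0.31 (−0.31 to 0.93).

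The difference in Cdkn3 between genotypes changed from day 3 to day 4 by −2.42 (95% interval −3.42 to −1.42, edgeR adjusted p = 0.00201). It was the only member called in this test, against 3.7% of all genes. The call was lost without FL/FL replicate 2 of day 3 (0.011), FL/FL replicate 2 of day 4 (0.0229) or WT/FL replicate 2 of day 4 (0.0102), with estimates of −2.47, −2 and −1.96. No member passed for the change from day 1 to day 2 (3.02% of all genes) or from day 2 to day 3 (0.905%). The nearest was Cdkn1b from day 1 to day 2, with −0.32 (adjusted p = 0.0442).

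Mki67, which encodes a protein of dividing cells, moved with Cdkn3 over days and was called between treated genotypes on days 2 and 4. On day 2 Mki67 was at 273 and 245 CPM in treated FL/FL and 376 and 332 CPM in treated WT/FL cells (−0.45, edgeR adjusted p = 0.000629). The interaction passed too (−0.52, 0.00869). Cdkn3 passed neither on that day, with −0.31 between treated genotypes (95% interval −0.71 to 0.1, edgeR adjusted p = 0.399) and an interaction of −0.45 (0.479). The interval of Cdkn3 includes the −0.45 of Mki67 between treated genotypes, and whether these genes differed on day 2 was not tested. On day 4 Mki67 was at 5.76 and 7.66 CPM in treated FL/FL and 47.9 and 47.2 CPM in treated WT/FL cells, and on day 3 at 29.6 and 28.5 against 34.5 and 33.1 CPM. Over the means of the 16 groups, the log2 CPM of Cdkn3 had a Pearson correlation of 0.99 with Mki67, 0.98 with Cdkn2c and 0.96 with Cdkn2d, a description over groups that share the course of days. Whether the share of dividing cells accounts for the lower Cdkn3 was not tested.

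Cdkn2c and Cdkn2d, which ran with Cdkn3 over days, differed less between genotypes. On day 4 Cdkn2c was at 15.1 and 14 CPM in treated FL/FL and 19.8 and 19.4 CPM in treated WT/FL cells, without overlap. The difference of −0.43 (95% interval −0.73 to −0.12) did not pass in the fit to all libraries (adjusted p = 0.0323). It passed in a fit to the 16 treated libraries (−0.43, 9.61e-05) and to the 4 libraries compared (−0.39, 0.00894). It also passed (−0.43, 1.7e-05) in a fit without replicate 2 of untreated FL/FL cells on day 1. That library is not among the 4 compared, but it was far from its pair for this gene, as given below, and so widened the error of Cdkn2c in every comparison of the joint fit. Against untreated FL/FL cells at 23.8 and 22.9 CPM it was −0.68 (0.00116), a call lost without replicate 2 of the treated (0.0209) or replicate 1 of the untreated cells (0.0149). On days 1 to 3 the difference between treated genotypes was 0, −0.21 and 0.01, each with an interval that includes 0.

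For Cdkn2d the difference between treated genotypes was −0.07, 0.13, 0.36 and −0.01 on days 1 to 4. On day 3 the FL/FL libraries held 11.2 and 12.5 CPM and the WT/FL libraries 9.44 and 9 CPM, with no overlap. That difference (95% interval 0.15 to 0.57) just missed the threshold at an adjusted p of 0.0119, and passed with RLE size factors (0.0083), with the 16 treated libraries alone (0.00658) and in DESeq2 (0.00553). The untreated genotypes differed by 0.28 on the same day (0.07 to 0.49, adjusted p = 1), at 10.6 and 11.2 against 7.67 and 10.3 CPM. With that difference taken off, the interaction was 0.08 (edgeR adjusted p = 0.831). Treated FL/FL cells differed from untreated FL/FL cells by 0.12 on day 3 (0.444).

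The remaining 3 genes gave no call between genotypes, and their intervals were wide. Cdkn1c in treated FL/FL cells was at 6.86 and 4.94 CPM on day 1, 5.52 and 4.72 on day 2, 6.78 and 5.39 on day 3 and 9.47 and 6.02 on day 4. In treated WT/FL cells it was at 5.37 and 5.01, then 4.62 and 4.12, then 2.86 and 3.91, and then 6.67 and 5.21 CPM. The groups did not overlap on days 2 and 3, and the largest difference was 0.84 on day 3 (95% interval 0.08 to 1.61, adjusted p = 0.125). It passed only with no filter on low counts (0.000314). Cdkn2a differed by −0.4, −0.4, 0.29 and −0.17 on days 1 to 4, and Cdkn2b by 0.28, −0.17, 0.29 and −0.06. Their intervals all included 0 and reached as far as −1.15 and 1.12 for Cdkn2a and −0.95 and 1.07 for Cdkn2b, so differences of that size could not be told from none with these libraries.

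Untreated cells and WT/FL cells given 4-OHT served as the background. The latter comparison holds 4-OHT, active Cre and loss of 1 copy of Trex1 together, so it does not show 4-OHT alone. Between untreated genotypes no member was called on any of the 4 days, and 0%, 0%, 0% and 0.0655% of all genes were. At an unadjusted p under 0.05, 1, 0, 1 and 0 of the 7 genes came up on days 1 to 4, against 1129, 588, 468 and 2414 of the 15257 genes. In WT/FL cells, 4-OHT changed no member, with 0.00655%, 0.0918%, 0.341% and 0.216% of all genes called and 0, 0, 0 and 2 members at an unadjusted p under 0.05. These 2 were Cdkn2b on day 4 (−0.97, adjusted p = 0.482), at 1.11 and 1.58 CPM treated against 2.99 and 2.24 untreated, and Cdkn3 on day 4 (−0.61, 0.579), at 1.05 and 1.88 against 2.15 and 2.24 CPM. The treated WT/FL groups of day 4 thus lay below the untreated ones for both genes, without overlap but short of the test. The same held for Cdkn2c, at 19.8 and 19.4 against 22.1 and 22.2 CPM (−0.18, edgeR adjusted p = 0.944). It also held for Cdkn2d, at 7.83 and 7.65 against 8.69 and 8.97 CPM (−0.19, 0.807), and for Mki67 (−0.44, 0.0215). The groups overlapped for Cdkn1b, Cdkn1c and Cdkn2a, and the share of all genes without overlap was not counted.

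In FL/FL cells, 4-OHT called 0, 1, 1 and 2 of the 7 genes on days 1 to 4, all lower, against 0.0131%, 11.1%, 15.7% and 21.4% of all genes. Besides Cdkn1b and Cdkn2c, described above, this was Cdkn3 on day 4, at 0.443 and 0.212 CPM against 2.57 and 2.38 CPM untreated (−2.89, 95% interval −3.62 to −2.17, adjusted p = 4.7e-07). The interaction called no member on days 1 to 3 (0.00655%, 4.04% and 4.65% of all genes) and 1 on day 4 (10.4%). That was Cdkn3, at −2.29 (−3.22 to −1.35, adjusted p = 0.00068), and without FL/FL replicate 2 of day 4 it was −1.87 (0.0131).

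On day 1, replicate 2 of untreated FL/FL cells set several estimates. Cdkn2c was at 59 CPM in it and at 93.4 to 104 CPM in the other 7 libraries of that day. The neighbouring gene Faf1 was at 61.6 CPM there, against 51.9 to 56.8 CPM in the others. Cdkn1c was at 2.29 against 6.15 CPM and Cdkn2a at 1.07 against 2.45 CPM in replicate 1. With both libraries Cdkn2c differed by −0.35 between untreated genotypes (adjusted p = 0.592). It differed by −0.04 (1) without replicate 2 and by −0.76 (1.96e-08) without replicate 1. The estimate for Cdkn2a in that comparison was −0.68 with both and −0.2 without replicate 2, and for Cdkn1c it was −0.15 and 0.39. Without replicate 2, Cdkn2c was also called in the interaction on day 4 (−0.51, adjusted p = 0.000265, against −0.5 and 0.106 with it), in the change of the genotype difference from day 3 to day 4 (−0.43, 0.00403, against 0.267) and after 4-OHT in FL/FL cells on day 2 (−0.4, 8.97e-06, against 0.0374). The steps that Cdkn1c, Cdkn2a and Cdkn2c gained without it are given above, and no member lost a call.

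Genes that work with the inhibitors were followed as lists in the genotype comparison of day 4, in which 21.5% of all genes were called (1502 higher and 1782 lower in FL/FL cells). The lists were chosen with earlier results of these data known. Of the 5 INK4 targets, 3 rose and 1 fell in treated FL/FL cells (median difference 0.39, that of all genes −0.04). Ccnd2, a D-type cyclin, was at 22.2 against 1.78 CPM (3.62, adjusted p = 1.42e-13) and Ccnd1 at 240 against 127 CPM (0.92, 1.12e-09). The kinase genes Cdk6 (0.39) and Cdk4 (−0.26) moved in opposite directions. Of 7 CDK1 and CDK2 genes with cyclins E, A and B, 6 fell and none rose (median −1.48). Ccnb2, Ccna2, Ccnb1 and Ccne2 differed by −3.76, −3.58, −2.13 and −1.48. Of 14 proliferation markers, 12 fell (median −0.87), with Plk1 at −3.57, Birc5 at −3.05, Mki67 at −2.83 and Bub1 at −2.5. All 9 interferon-inducible genes rose (median 2.91), with Cxcl10 at 3.65, Rsad2 at 3.42, Mx1 at 3.27 and Ifit3 at 2.93. Cdkn3 stood among the genes that fell.

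Of 11 genes of the RB and E2F families, through which CDK4 and CDK2 drive the cycle, 1 rose and 3 fell on day 4 (median −0.19), against the 21.5% called among all genes. E2f7, a repressor E2F, was at 0.307 against 2 CPM (−2.73, adjusted p = 2.74e-08), and Rb1 (−0.52), Rbl2 (−0.3) and Rbl1 (0.32) moved less. Of 8 genes that control p27 and p57 or their turnover, 3 fell and none rose (median −0.18). Those were Cks1b (−1.31), a cofactor in the degradation of p27, its relative Cks2 (−0.79), and Foxo3 (−0.41), a transcription factor known to induce Cdkn1b. Of 12 genes that control the INK4-ARF locus or act with ARF, Bmi1 rose (0.5), and Cbx7 (−0.66) and Ezh2 (−0.4) fell (median 0.04). With 3 of 12 called, this list was near the share of all genes, which is no result about the list. These 3 encode Polycomb proteins, which repress Cdkn2a. Of 8 imprinted neighbours of Cdkn1c, 5 were kept by the filter, and none passed (median −0.12).

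**Figure D4:**
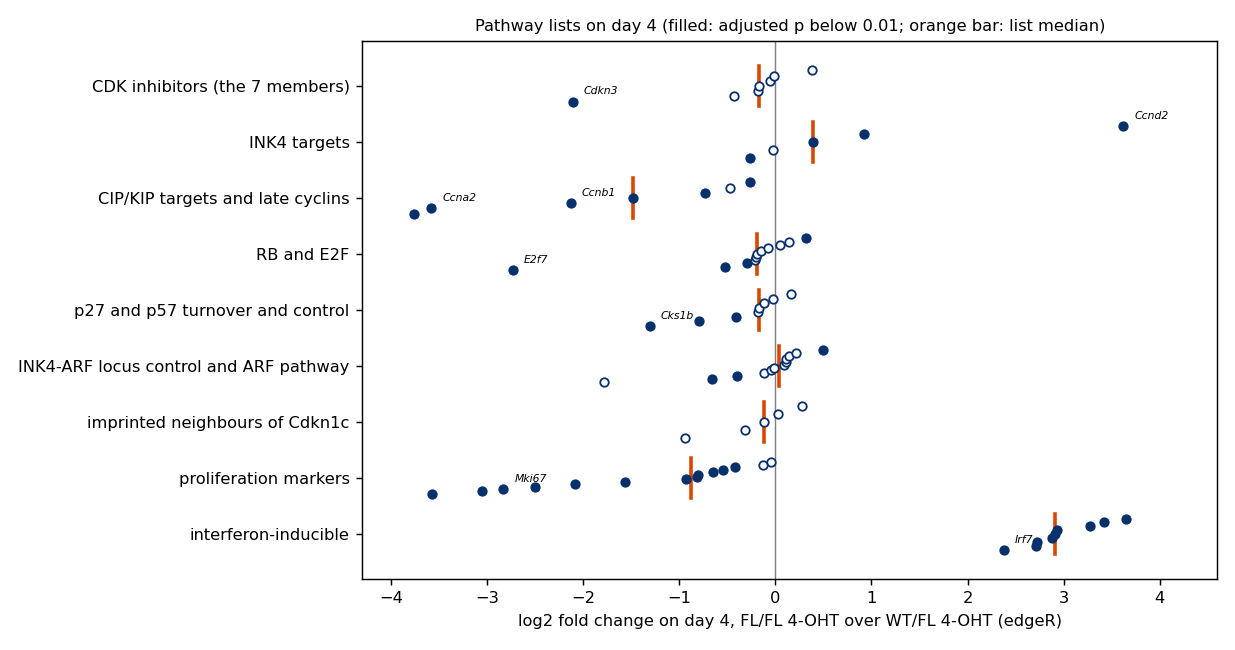
Log2 fold change of each listed gene on day 4 between treated FL/FL and treated WT/FL cells (horizontal axis), by list, with filled points for an adjusted p under 0.01 and an orange bar at the list's median. Cdkn3 was the only filled point of the 7 inhibitors, and 6 of 7 CDK1, CDK2 and late cyclin genes and 12 of 14 proliferation markers fell.

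The genes whose log2 CPM over the 16 group means was most like each member were picked by Pearson correlation among all genes kept by the filter. For Cdkn3 they were Shcbp1 (0.998), Ckap2l (0.997) and Cep55 (0.996). For Cdkn2d they were Hmgn5 (0.994), Cdc25b (0.992) and Dcps (0.991), and for Cdkn2c Acot11 (0.993), Ptpa (0.993) and Prelid1 (0.991). Cdkn1b was most like Sft2d2 (0.988), 4833438C02Rik (0.986) and Fbxo32 (0.985), and its correlation was −0.77 with Cdkn2c and −0.78 with Cdkn2d and Cdkn3. The low genes had weaker matches, with Jun (0.914), Senp3 (0.901) and Gm38228 (0.857) for Cdkn1c, 4933404O12Rik (0.927), Cotl1 (0.92) and Ptgr1 (0.907) for Cdkn2a and Gm37558 (0.894), Gm31805 (0.842) and Apol8 (0.839) for Cdkn2b. Cdkn2a and Cdkn2b, neighbours on chromosome 4, had a correlation of −0.06 with each other. The 16 points share days, so these values describe the course in culture.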

How the data were processed

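The 32 libraries of total RNA from BMDMs were sequenced on an Illumina NovaSeq. According to the methods and the submitters' processing notes, the authors checked reads with FastQC (version 11.9), estimated transcript abundances with Salmon on GRCm39, summed them per gene and tested them with DESeq2 (version 1.32). The deposited values are expected counts of genes, given without decimals and not normalized. Gene symbols came from GENCODE vM39 (51048 of 54281 identifiers matched; the others held 0.32% of counts).

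Counts were fitted in edgeR (version 4.0.16, R 4.3.3), with TMM factors, filterByExpr (minimum count 10), a mean for each of 16 groups and robust quasi-likelihood dispersions (common biological coefficient of variation 0.0912, 16 residual degrees of freedom). A gene was called at a Benjamini-Hochberg adjusted p under 0.01 over all 15257 genes, and percent called is the share of these. Intervals are 95%, from the fit's standard error. The script was tested on simulated data. Alternatives included RLE and upper-quartile factors, DESeq2 (version 1.42.0), other filters, fewer libraries and each library left out. All 7 genes were described in every comparison, and up to 4 called genes per pathway list with the largest difference on day 4 were named. The members and lists were chosen with earlier results of these data known.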

Additional observations from a re-analysis of the deposited data

Results flagged for a closer look

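2 effects on Cdkn3, the gene of the phosphatase KAP, differed by a test of the difference itself. The effect of 4-OHT on day 4 differed between genotypes by −2.29 on the log2 scale (edgeR interaction, adjusted p = 0.00068), with −2.89 in FL/FL and −0.61 in WT/FL cells. The genotype difference after 4-OHT differed between days 4 and 3 by −2.42 (adjusted p = 0.00201), with −2.11 on day 4 and 0.31 on day 3. Both rest on the treated FL/FL libraries of day 4, which held 0.443 and 0.212 CPM (16 and 7 counts). Without replicate 2 of these, both calls were lost, with estimates of −1.87 and −2. The change between days also lost its call without replicate 2 of treated FL/FL cells on day 3 (−2.47) or of treated WT/FL cells on day 4 (−1.96).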

How the results depend on the processing

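No paired analysis was possible because neither the labels nor the column names give a replicate number, mouse or batch, and what the numbers in the titles mark is not stated. The main limits are 2 libraries per group, low counts of Cdkn1c, Cdkn2a, Cdkn2b and, on days 3 and 4, Cdkn3, and 1 library of day 1 that widens the error of Cdkn2c. With 1 library left out, the other of its group is assumed to vary like the rest.

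The member called on day 2 between treated genotypes was lost (0 called) with the 4 libraries compared alone, in the interaction and under the stricter rule. On day 3 the count of 1 became 2 with RLE factors, no filter, the 16 treated libraries, DESeq2 or an adjusted p under 0.05, and 0 in the interaction and under the stricter rule. On day 4 it became 2 with no filter, the 16 treated libraries, the 4 compared or untreated FL/FL cells as control, and 3 at 0.05. The other comparisons were tried under the same alternatives after the data had been seen. With no filter, the count was 1 between untreated genotypes on day 1, 3 and 2 after 4-OHT in FL/FL cells on days 2 and 3, 2 in the interaction on day 4, and 2 and 4 for the first and last step of untreated WT/FL cells. These steps gave 2 with RLE or upper-quartile factors or DESeq2, and 4 with DESeq2. The change from day 3 to day 4 gave 2 with the 16 treated libraries. With a library left out, counts ran from 0 to 1 for treated genotypes on days 2 and 3, from 1 to 2 on day 4, from 0 to 1 for untreated genotypes, 4-OHT in FL/FL cells and the interaction on day 1, and from 0 to 2 after 4-OHT in FL/FL cells on day 2. They ran from 1 to 2 there on day 4, from 0 to 1 in the interaction on day 3 and from 0 to 2 on day 4, from 1 to 3 for the last step of untreated WT/FL and the first step of treated FL/FL cells, and from 0 to 2 for the change from day 3 to day 4. The cause was not tested beyond what each alternative leaves out. Of the other counts, 294 alternatives stayed within 1.5 times.

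Signs turned only for differences that had not passed. Against untreated FL/FL cells, day 1 gave −0.01 (Cdkn1b), 0.3 (Cdkn2a) and −0.07 (Cdkn3), day 2 0.19 (Cdkn2b), day 3 −0.29 (Cdkn2a) and −0.23 (Cdkn2c), and day 4 −0.002 (Cdkn1c). The interaction gave 0.27 (Cdkn2a) and −0.01 (Cdkn3) on day 1, −0.15 (Cdkn1c) and 0.11 (Cdkn2b) on day 2, −0.33 (Cdkn2a) and −0.04 (Cdkn2c) on day 3, and 0.04 (Cdkn2a) and 0.35 (Cdkn2b) on day 4. Cdkn2c gave −0.01 on day 1 with no filter, and on day 3 −0.01 with a minimum count of 50 and −0.002 with the 16 treated libraries. Cdkn2d on day 4 gave 0.003 with RLE factors or DESeq2 and 0.02 with the 4 libraries. Leaving out a library turned 18 more, in ranges of −0.07 to 0.4 (Cdkn1c, day 1), −0.23 to 1.06, −0.46 to 0.2, −0.13 to 0.93 and −0.3 to 0.21 (Cdkn2b, days 1 to 4), −0.03 to 0.03 and −0.06 to 0.08 (Cdkn2c, days 1 and 3), −0.15 to 0.0003 and −0.07 to 0.04 (Cdkn2d, days 1 and 4), −0.07 to 0.1 and −0.04 to 0.85 (Cdkn3, days 1 and 3) and −0.54 to 0.28 (Cdkn2a, day 4).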
